A study of Homo sapiens with 10 samples.

Results

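The genes described here encode molecular chaperones and protein folding enzymes: heat shock proteins, their J-domain (DNAJ), BAG and chaperonin (CCT and TCP1) partners, the lectin chaperone calreticulin, protein disulfide isomerases (PDIA) and peptidyl-prolyl isomerases of the FKBP and cyclophilin (PPI) families. They were chosen by name patterns, applied to the gene names in 7 deposited lists of m6A peaks. The patterns use no peak value, but a gene needed a called peak in a list to be found. Earlier results of these data were known when the choice was made. The patterns found 50 genes of 5000 with a peak in any list (1.00%), of which 48 are protein-coding in RefSeq, 1 (HSP90AB3P) is a pseudogene and 1 (DNAJC3-AS1) is a long non-coding RNA. By family there were 11 HSP70 genes, 10 DNAJC, 4 DNAJB, 4 CCT or TCP1, 4 BAG, 3 HSP90, 3 FKBP, 3 PPI, 2 PDIA and 1 DNAJA gene, with HSPH1, CALR, HSPE1-MOB4, HSPBAP1 and HSPBP1. HSPBAP1, which binds the small heat shock protein HSPB1, and HSPBP1, a nucleotide exchange factor of HSP70, entered by their names. HSPE1-MOB4 and DNAJC25-GNG10 are read-through names that join a chaperone gene with its neighbour.

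Chaperones bind unfolded stretches of other proteins and release them to fold. HSP70 does so in cycles of ATP use that J-domain proteins start and that BAG and HSP110 proteins help to end, and it hands clients on to HSP90 or to the ring-shaped CCT chaperonin. In the endoplasmic reticulum (ER), calreticulin, protein disulfide isomerases and cyclophilin B work beside the HSP70 member HSPA5. Heat and other protein damage raise many of these genes through heat shock elements, and ER stress raises another group through ER stress elements. In prostate cancer the family is best known because HSP90, HSP70 and FKBP proteins hold the androgen receptor ready to bind its hormone. m6A, a methyl mark on adenosines in RNA, is read by proteins that act on splicing, decay and translation of the marked transcript.

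MeRIP-seq pulls fragmented RNA down with an antibody against m6A and sequences it beside input RNA taken without the antibody. By the labels, all libraries held total RNA of V16A cells, a castration-resistant prostate cancer (CRPC) line. By its title the series links m6A of nascent transcripts with T cell activation genes in hypoxic cells. The pulled-down libraries were 2 of hypoxia, 1 named EU 40min and 2 of normoxia, and each of these 3 groups had its inputs, 5 in all. The labels do not explain EU, the usual abbreviation of ethynyl uridine, a tag for newly made RNA, and they give neither its oxygen condition nor the oxygen level or duration of the hypoxia. Whether replicates came from separate cultures is not stated, so the error in each test below may be technical only. Besides the 5 libraries, hypoxia and normoxia each had 1 condition list, and the sources used here do not say how it was made.

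The libraries differed widely in the length of their peak lists, and lengths bear on every count below. Hypoxia replicates 1 and 2 had 2879 and 6621 peaks, the EU library 5044, and normoxia replicates 1 and 2 had 212 and 1563. Read depth is unknown, since the lists hold only called peaks. Normoxia replicate 1 stood apart: none of its 139 genes was a member, so every member peak of a normoxia library below is from replicate 2. The libraries are of bulk RNA and input levels were not analysed here, so more of a transcript and more m6A per transcript cannot be told apart. Among 14 markers of T and NK cells, hypoxia replicates 1 and 2 listed 10 and 12, with 10 in the EU library, and 5 and 0 in the normoxia replicates. Of 11 prostate and epithelial markers, 2 and 4 had a peak in the hypoxia replicates, 8 in the EU library, and 1 and 5 in the normoxia replicates; FOLH1, KRT8 and KRT18 had none in any list. Peaks in T and NK cell markers are at odds with a label that names a prostate line alone, and the normoxia replicates differ in them. These marker counts differ between libraries, as do the counts of chaperone genes, and their part in the results was not tested.

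Chaperone and folding genes were listed most often in hypoxia replicate 2, where their share also lay farthest from that of all genes. There were 14 and 28 members with a peak in hypoxia replicates 1 and 2 (28.0% and 56.0% of the 50), 21 in the EU library (42.0%), and 0 and 11 in normoxia replicates 1 and 2 (0% and 22.0%). Over all 5000 genes the same shares were 25.2% and 43% in hypoxia, 47.8% in EU, and 2.78% and 17.9% in normoxia. Seen the other way, members made up 1.11% and 1.30% of the genes listed in the hypoxia replicates, 0.879% in the EU library, and 0% and 1.23% in the normoxia replicates. The exact 95% intervals, which cover counting error only, overlapped for all 5 libraries, and that of normoxia replicate 1 reached 2.62%.

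**Figure D1:**
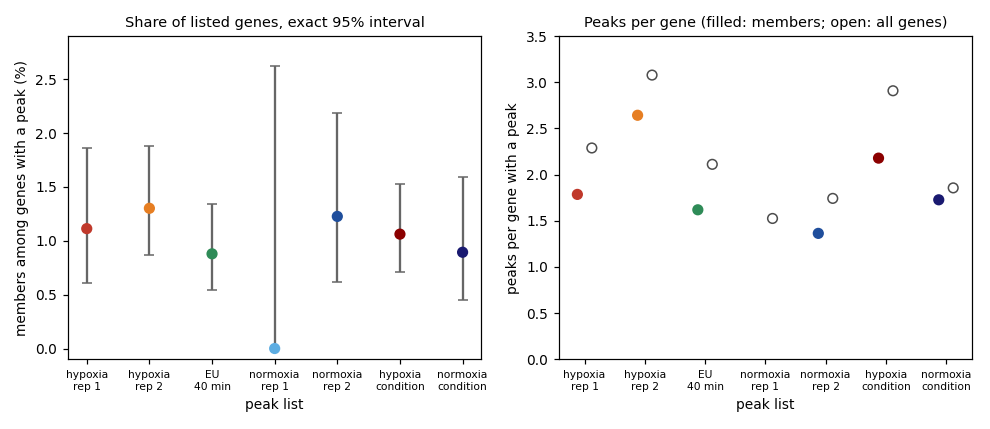
Left, the share (%) of genes with a peak that are chaperone or folding genes, by peak list, with exact 95% binomial intervals. Right, peaks per gene with a peak, for members (filled) and for all genes of the list (open). The shares lie between 0.879% and 1.30% in every list but normoxia replicate 1, which holds no member, and the filled points lie below the open ones in each list with members.

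The number of chaperone genes with a peak was higher in hypoxia, but not beyond the spread between normoxia libraries. On the scale log2(genes + 1) the mean was 4.38 ± 0.67 in hypoxia and 1.79 ± 2.53 in normoxia (SD, n = 2 each), a difference of 2.59. The exact two-sided permutation test over libraries gave p = 0.333, the smallest that 2 against 2 allow. Without normoxia replicate 1 the difference fell to 0.80. Taken as a share of listed genes, members averaged 1.21% ± 0.13 in hypoxia and 0.613% ± 0.867 in normoxia (SD, n = 2 each), a difference of 0.594 percentage points (exact permutation p = 0.667). The share difference also rested on normoxia replicate 1: without it the value was -0.0190.

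Chaperone genes had fewer peaks per gene than the other genes of the same library in each of the 4 libraries that hold members. Members had 1.79 and 2.64 peaks per gene in the hypoxia replicates, 1.62 in the EU library and 1.36 in normoxia replicate 2. Other genes had 2.29 and 3.08 in hypoxia, 2.12 in EU and 1.75 in normoxia replicate 2. The mean difference was -0.457 ± 0.0574 (SD, n = 4 libraries), lower for members in 4 of 4. An exact paired permutation test over the libraries gave p = 0.125, the smallest that 4 pairs allow, so it could not pass a threshold of 0.05. The libraries list partly the same genes, so they are not independent repeats of this contrast, and the spread between genes was not measured. The same holds for the comparisons of members with other genes over libraries given further below. Between conditions, peaks per member gene averaged 2.21 ± 0.61 in hypoxia (SD, n = 2) against 1.36 in normoxia replicate 2, with normoxia replicate 1 dropped because it has no member (exact permutation p = 0.667, with 0.333 the smallest possible). All genes also had fewer peaks per gene in the normoxia libraries, 1.53 and 1.74.

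**Figure D2:**
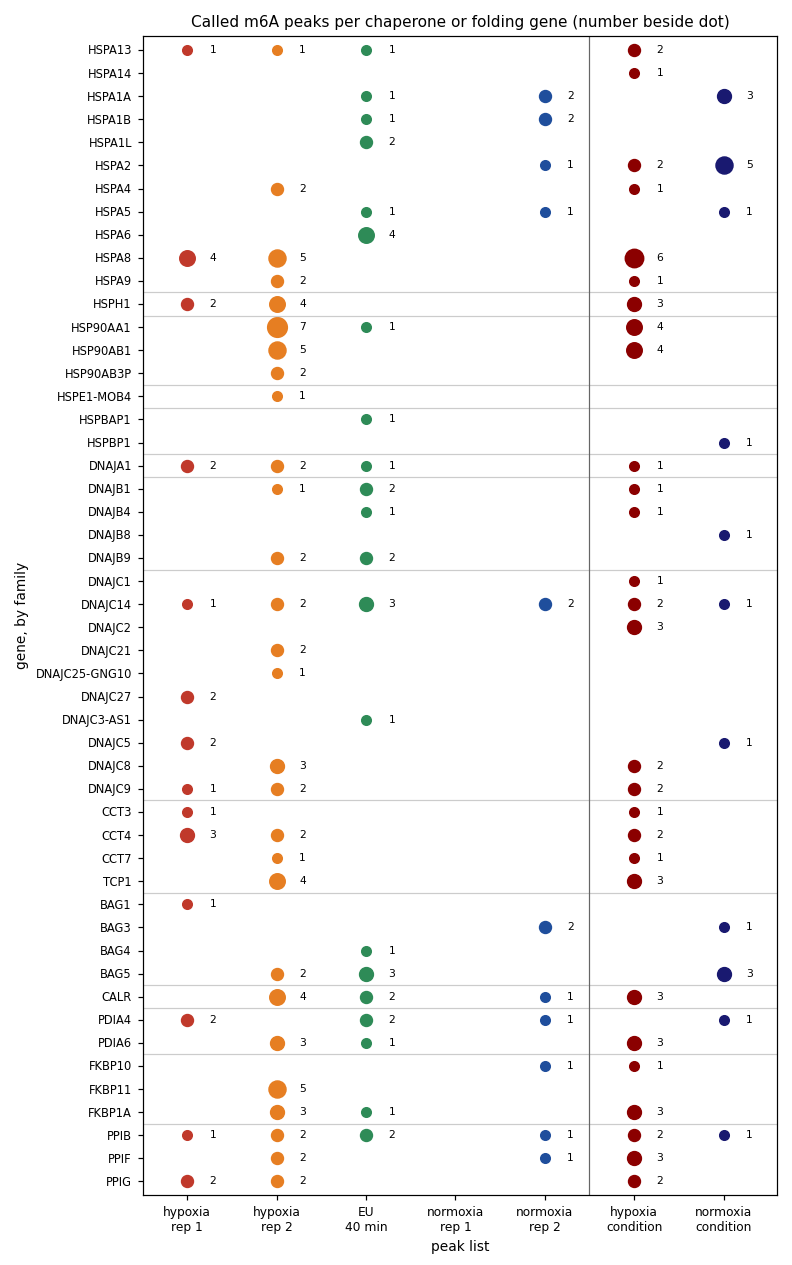
Number of called m6A peaks in each of the 50 genes (rows, grouped by family) in the 5 libraries and, right of the line, in the 2 condition lists. Dot area grows with the number written beside it. PPIB and DNAJC14 have peaks in all 4 libraries that hold members, and the column of normoxia replicate 1 is empty.

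Of the 39 members that the hypoxia and normoxia replicates list between them, 7 had a peak in both hypoxia replicates and in neither normoxia replicate (17.9%), here called hypoxia-only, close to the 15.3% of all 3226 such genes. They were HSPA8, HSPA13, HSPH1, DNAJA1, DNAJC9, CCT4 and PPIG. No member was normoxia-only, which 0.155% of all genes were, and none could be, since normoxia replicate 1 holds no member. A further 21 members had a peak in 1 hypoxia library and no normoxia library, 17 of them in replicate 2 and 4 in replicate 1. The share of all genes with this pattern was not counted, so the 21 cannot be read as particular to members. Of the 28 members in hypoxia replicate 2, 32.1% were also in replicate 1, against 31.7% of all its genes. Of the 14 members in hypoxia replicate 1, 64.3% were also in replicate 2, against 54.2% of all its genes. There were 6 members with a peak in normoxia replicate 2 and no hypoxia library (BAG3, FKBP10, HSPA1A, HSPA1B, HSPA2 and HSPA5), and 5 with peaks in both conditions (CALR, DNAJC14, PDIA4, PPIB and PPIF). These 5 were 45.5% of the members in normoxia replicate 2, where 47.7% of all its genes had a hypoxia peak. They were 15.2% of the members in a hypoxia replicate, against 15.7% of all such genes. Members thus lay near all genes in both shares. Another 6 members were listed for EU but for none of the 4 hypoxia and normoxia libraries, and 5 in a condition list alone. At least 1 of the 5 libraries listed 45 of the 50 members, and 4327 of all 5000 genes. The hypoxia-only count was 24 without hypoxia replicate 1 and 11 without hypoxia replicate 2. By the condition lists it was 25 (69.4% of the members in either list, against 62.8% of all genes). When the 50% of peaks with the smallest p were kept it was 1, and at 212 peaks per library it was 0. For the alternatives other than the condition lists, the share over all genes was not counted. Presence in 2 libraries against 2 cannot give an exact p below 0.333 for any single gene, so genes were not tested one by one.

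Within the HSP70 family, HSPA4, HSPA8, HSPA9 and HSPA13 had peaks in hypoxia, while the stress-inducible pair HSPA1A and HSPA1B, the ER member HSPA5 and HSPA2 had them in normoxia. HSPA8, the constitutive cytosolic HSP70, had 4 and 5 peaks in the hypoxia replicates, 0 in the EU library and 0 in both normoxia replicates. HSPA13, a microsome-associated HSP70, had 1 and 1 in hypoxia, 1 in EU and 0 in both normoxia replicates. HSPA9, the mitochondrial HSP70, and HSPA4, an HSP110-like exchange factor, each had 2 peaks, both in hypoxia replicate 2. These 4 genes had no peak in normoxia, and no HSP70 gene had a peak in both a hypoxia and a normoxia library, although HSPA2 had 2 in the hypoxia condition list and 5 in the normoxia one. For comparison, 5 of the 11 members listed in normoxia replicate 2 (45.5%) also had a peak in a hypoxia replicate, against 47.7% of all 897 genes of that library.

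HSPA1A and HSPA1B, neighbouring genes on chromosome 6 that encode nearly the same heat-inducible HSP70, had no peak in the hypoxia replicates, 1 each in EU and 2 each in normoxia replicate 2. Reads may have been split between these near-identical copies, so the peaks of the 2 genes are not independent. HSPA5, the ER chaperone BiP, had none in hypoxia, 1 in EU and 1 in normoxia replicate 2. HSPA2, best known from the testis, had 1 peak in normoxia replicate 2. HSPA6, a human HSP70 made only after strong stress, had 4 EU peaks, and HSPA1L, a testis-enriched relative, had 2; neither was listed by the other 4 libraries. HSPA6 has a near-identical pseudogene, so its peaks are likewise uncertain as to gene.

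The sequences before the transcription start of 5 of these genes are shown because the genes fall into different library patterns and into the heat shock and ER stress groups. Each is the stretch of 250 bases before the start in the RefSeq promoter table (GRCh38.p14, the assembly of hg38), whose start may lie inside the span used for positions, read 5′ to 3′ on the gene's strand, and capitals mark the motif named. The heat shock element was searched as GAANNTTC or TTCNNGAA, both equal to their own reverse complement, so that a row of 3 units holds 2 overlapping matches. The ER stress element was searched on both strands as CCAAT and CCACG with 9 bases of any kind between them. HSPA8, with peaks in hypoxia, lies on the minus strand at chr11:123062137-123062386 and has 2 stretches of 3 heat shock units.
HSPA8: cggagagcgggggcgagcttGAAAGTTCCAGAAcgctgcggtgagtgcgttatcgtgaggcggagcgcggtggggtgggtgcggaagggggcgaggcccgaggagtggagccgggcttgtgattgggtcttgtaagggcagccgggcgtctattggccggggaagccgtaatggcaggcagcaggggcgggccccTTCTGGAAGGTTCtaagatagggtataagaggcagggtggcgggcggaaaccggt
HSPA6, with peaks in the EU library, lies on the plus strand at chr1:161524290-161524539 and has 1 stretch of 3 units and 1 of 2.
HSPA6: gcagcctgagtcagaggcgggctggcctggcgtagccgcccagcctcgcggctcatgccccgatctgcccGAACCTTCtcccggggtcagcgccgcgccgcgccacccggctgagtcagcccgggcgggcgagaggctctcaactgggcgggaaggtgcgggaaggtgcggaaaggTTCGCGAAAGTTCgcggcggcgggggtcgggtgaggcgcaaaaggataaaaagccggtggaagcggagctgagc
HSPA1A, with peaks in EU and normoxia, lies on the plus strand at chr6:31815293-31815542 and has 1 stretch of 2 units, 98 bases before the start.
HSPA1A: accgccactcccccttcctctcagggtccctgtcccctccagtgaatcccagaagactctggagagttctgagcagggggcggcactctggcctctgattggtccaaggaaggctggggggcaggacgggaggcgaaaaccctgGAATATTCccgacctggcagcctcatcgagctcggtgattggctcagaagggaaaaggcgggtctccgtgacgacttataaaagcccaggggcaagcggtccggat
HSPA5, with peaks in EU and normoxia, lies on the minus strand at chr9:125241344-125241593 and has 1 ER stress element, 47 bases before the start.
HSPA5: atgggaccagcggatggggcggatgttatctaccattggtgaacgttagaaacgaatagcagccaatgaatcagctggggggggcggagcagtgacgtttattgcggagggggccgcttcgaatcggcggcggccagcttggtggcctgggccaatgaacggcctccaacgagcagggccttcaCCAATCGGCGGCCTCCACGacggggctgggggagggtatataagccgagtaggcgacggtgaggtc
CALR, with peaks in hypoxia, EU and normoxia, lies on the plus strand at chr19:12938359-12938608 and has 1 such element on the other strand.
CALR: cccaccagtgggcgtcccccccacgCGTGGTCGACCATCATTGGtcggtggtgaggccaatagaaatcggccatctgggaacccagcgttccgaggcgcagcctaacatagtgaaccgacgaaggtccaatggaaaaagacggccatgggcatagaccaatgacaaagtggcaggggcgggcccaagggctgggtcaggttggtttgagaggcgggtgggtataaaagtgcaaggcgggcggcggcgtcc

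Among 44 members with an entry in the promoter table, 7 had a heat shock element of at least 2 units (15.9%), against 11.7% of all 27305 promoters: DNAJA1, HSPA1A, HSPA1B, HSPA1L, HSPA6, HSPA8 and TCP1. The windows of HSPA1A and HSPA1L overlap. A row of 3 units was found in HSPA6 and HSPA8 (4.55% of members) and in 0.439% of all promoters. The ER stress element was found in CALR and HSPA5, also 4.55%, and in 0.0806% of all. HSPA6, HSPA8, CALR and HSPA5 are all among the sequences shown, which thus do not stand for other heat shock and ER stress genes. DNAJB1, DNAJB9, HSP90AA1, HSPH1 and PDIA4 had no match to the heat shock or the ER stress element. The core of the hypoxia response element, ACGTG or GCGTG on either strand, was in 29 members (65.9%), against 43.1% of all promoters. Of the genes shown above, CALR had this core, and HSPA8, HSPA6, HSPA1A and HSPA5 did not. Of the hypoxia-only members, CCT4, DNAJC9 and HSPA13 had it. HSPA8, HSPH1 and DNAJA1 did not, and PPIG had no entry. All promoters include those of genes in no peak list, and the shares among other genes with a peak were not counted. The shares of members and of all promoters are thus of unlike sets of genes. These matches are descriptions of the letters in the windows and were not tested.

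The peaks of HSPA8 lay between 0.34 and 0.94 of the gene's span, and those of both hypoxia replicates met near its end. The most distal peak lay at chromosome 11, 123057639 to 123057889 (hg38), in replicate 1 and was covered by a peak of 601 exon bases in replicate 2, with deposited p of 1.4e-05 and 0.00069. Its centre is 275 bases from the annotated end of the gene. Another pair met at 123058721 to 123058871, while the peaks of replicate 2 at 123059570 to 123060070 and beyond, toward the start, had no partner in replicate 1. HSPA1A in normoxia replicate 2 had its peaks at chromosome 6, 31816209 to 31816358 and 31817201 to 31817301, with deposited p of 1.2e-05 and 2.3e-05, and the EU peak began at the last base of the second. In HSPA1B the EU peak of 495 bases at 31829514 to 31830008 covered the normoxia peak at 31829613 to 31829711. In HSPA5 the EU peak was the widest of the 148 member peaks in the 5 libraries, 792 bases at chromosome 9, 125236337 to 125237128 (deposited p of 3.6e-06), and the normoxia peak of 248 bases lay inside it.

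**Figure D3:**
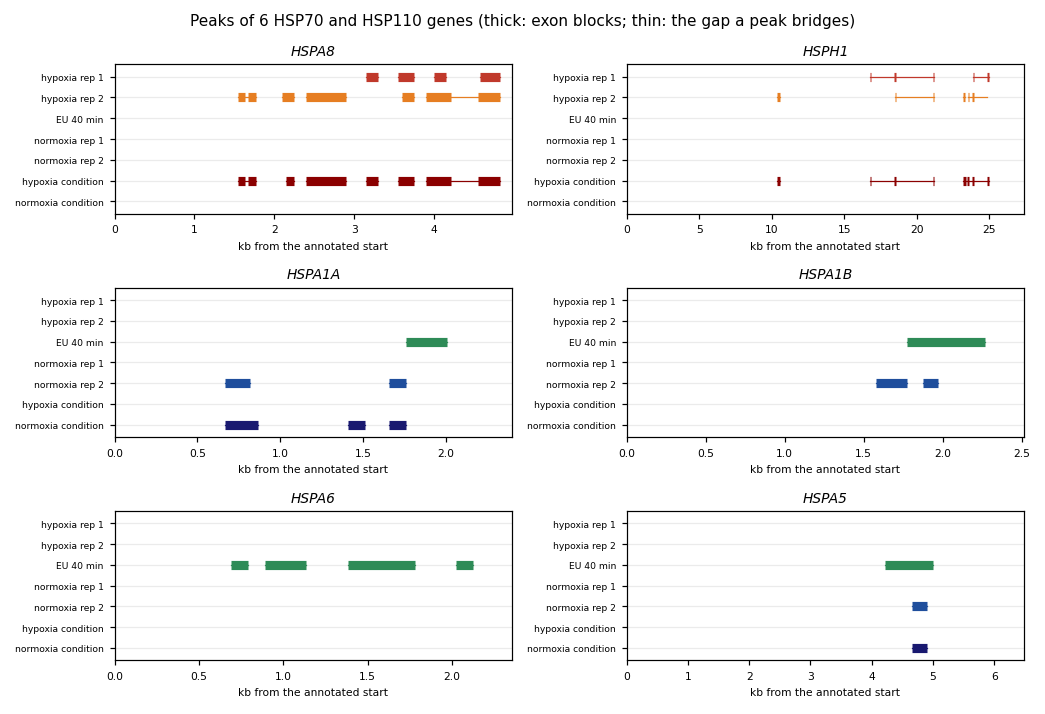
Peaks of 6 HSP70 and HSP110 genes in each list, in kb from the annotated start in the direction of transcription. Thick bars are exon blocks and thin lines the gaps that a peak bridges. HSPA8 and HSPH1 carry peaks in the hypoxia lists, and HSPA6 in the EU library. HSPA1A, HSPA1B and HSPA5 carry them in the EU library and normoxia replicate 2. HSPA1A and HSPA5, but not HSPA1B, also have peaks in the normoxia condition list.

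HSPH1, the HSP110 exchange factor for HSP70, had 2 and 4 peaks in the hypoxia replicates and none in the EU or normoxia libraries. A peak that joins distant exon blocks began at chromosome 13, 31141213, in both replicates, with deposited p of 8.9e-07 and 2.5e-06. HSP90 genes had peaks mainly in hypoxia replicate 2. HSP90AA1, the inducible cytosolic HSP90, had 0 and 7 peaks in the hypoxia replicates, the most of any member in 1 library, 1 in EU and 0 in both normoxia replicates. HSP90AB1, the constitutive form, had 0 and 5 in hypoxia and none in the other 3 libraries. The EU peak of HSP90AA1 at chromosome 14, 102084797 to 102085396 overlapped the best hypoxia peak at 102084847 to 102085546. HSP90AB3P, a pseudogene copied from HSP90AB1, had 2 peaks in hypoxia replicate 2, and reads of the 2 genes may have been exchanged. None of the 3 HSP90 genes was listed by hypoxia replicate 1. Of all genes of hypoxia replicate 2, only 31.7% were listed there, so absence from it is common.

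The CCT chaperonin folds actin and tubulin, and 4 of its subunit genes had peaks, in hypoxia libraries and in no EU or normoxia library. Of all genes of the hypoxia replicates, 38.0% had an EU peak and 15.7% one in normoxia replicate 2. CCT4 had 3 and 2 peaks in the hypoxia replicates, TCP1 0 and 4, CCT3 1 and 0, and CCT7 0 and 1. In CCT4 each of these 5 peaks joined at least 2 exon blocks, and 126 bases at chromosome 2, 61872458 to 61872583, were shared by both replicates. TCP1 had its best peaks at chromosome 6, 159783954 to 159784053 and 159784751 to 159784950, each with a deposited p of 5.9e-07. HSPE1-MOB4, which holds the mitochondrial co-chaperonin gene HSPE1, had 1 peak in hypoxia replicate 2. That peak bridged chromosome 2, 197501096 to 197523630, and so reached from HSPE1 into MOB4.

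J-domain genes differed in which libraries listed them. DNAJA1, a main cytosolic partner of HSP70, had 2 and 2 peaks in the hypoxia replicates, 1 in the EU library and 0 in both normoxia replicates. Its peak near the gene's end in hypoxia replicate 1 (chromosome 9, 33038716 to 33038964) contained the EU peak. The peaks of hypoxia replicate 2 lay nearer the start and shared exon bases with the other peak of replicate 1, at 33026895 to 33030537. DNAJB1, the heat-inducible J-domain protein, had 0 and 1 peaks in hypoxia, 2 in EU and 0 in both normoxia replicates, and the hypoxia peak lay at chromosome 19, 14516752 to 14517000. DNAJB9, an ER partner of HSPA5, had 0 and 2 in hypoxia, 2 in EU and none in normoxia; both EU peaks overlapped hypoxia peaks. DNAJC14, which helps receptors leave the ER, had 1 and 2 peaks in hypoxia, 3 in EU, and 0 and 2 in normoxia. DNAJC9, a histone co-chaperone, had 1 and 2 in hypoxia and none elsewhere, with the same 2 exon blocks at chromosome 10, 73245995 to 73246803, in both replicates.

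Each of the following DNAJ genes was listed by 1 of the 5 libraries. In hypoxia replicate 2 these were DNAJC8 with 3, which acts with the spliceosome, DNAJC21 with 2, a factor of ribosome assembly, and DNAJC25-GNG10 with 1. In hypoxia replicate 1 they were DNAJC5 with 2, the cysteine string protein of secretory vesicles, and DNAJC27 with 2. DNAJB4 and DNAJC3-AS1 each had 1 in the EU library. RefSeq names the latter DNAJC3-DT, a long non-coding RNA beside the ER co-chaperone gene DNAJC3.

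BAG genes, whose products release clients from HSP70, differed from each other in where they had peaks. BAG1 had 1 peak, in hypoxia replicate 1, with its centre 221 bases from the annotated start. BAG3, which links HSP70 to autophagy, had 2 in normoxia replicate 2, centred 499 and 175 bases before the annotated end. BAG4 had 1 in the EU library. BAG5 had 0 and 2 peaks in the hypoxia replicates, 3 in EU and 0 in both normoxia replicates, and it was the only member with peaks in at least 2 libraries that shared no base between them.

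Of the 45 members with a peak in a library, 6 had one in at least 3 libraries (13.3%, against 14.3% of all genes): CALR, DNAJA1, DNAJC14, HSPA13, PDIA4 and PPIB. PPIB, cyclophilin B, had 1 and 2 peaks in the hypoxia replicates, 2 in the EU library, and 0 and 1 in the normoxia replicates. All 4 libraries shared 99 bases of PPIB at chromosome 15, 64155959 to 64156057, centred 191 bases from the annotated end, with deposited p of 1.7e-07 and 0.00027 in hypoxia, 5.5e-07 in EU and 0.00017 in normoxia. DNAJC14 was the other gene with a base shared by 4 libraries, 100 bases at chromosome 12, 55827977 to 55828076. PDIA4, an ER disulfide isomerase, had 2 and 0 peaks in hypoxia, 2 in EU, and 0 and 1 in normoxia, and 150 bases at chromosome 7, 149003906 to 149004055, were common to its 3 libraries. CALR, calreticulin, had 0 and 4 in hypoxia, 2 in EU, and 0 and 1 in normoxia, with 50 bases at chromosome 19, 12943749 to 12943798, common to the 3. PDIA6, another ER disulfide isomerase, had 0 and 3 in hypoxia, 1 in EU and none in normoxia, the EU peak lying inside a hypoxia peak at chromosome 2, 10783984 to 10784280.

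**Figure D4:**
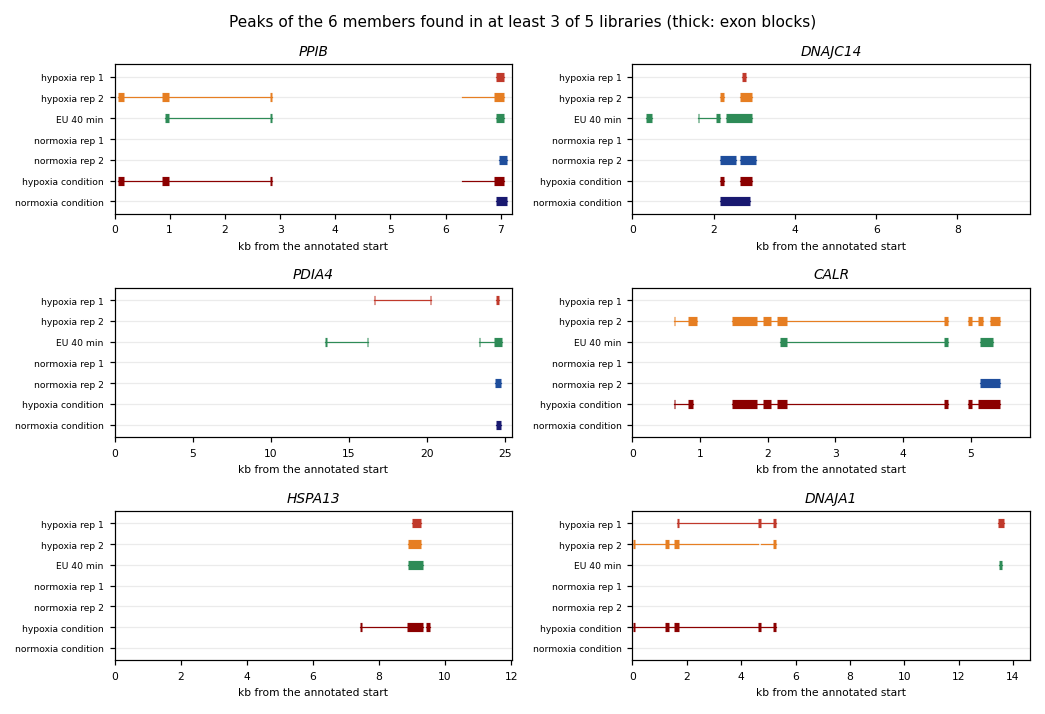
Peaks of the 6 members found in at least 3 of 5 libraries, in kb from the annotated start. Thick bars are exon blocks and thin lines the gaps a peak bridges. In PPIB and PDIA4 the peaks of every library with a call meet near the gene's end, while in DNAJC14 they meet at about 0.28 of the span.

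The other prolyl isomerase genes were each listed by 1 or 2 libraries. PPIG, a nuclear cyclophilin with a tail like that of splicing factors, had 2 and 2 peaks in the hypoxia replicates and none in EU or normoxia, and shared 101 bases at chromosome 2, 169636926 to 169637026. PPIF, the mitochondrial cyclophilin, had 0 and 2 in hypoxia, 0 in EU, and 0 and 1 in normoxia. FKBP1A, the FKBP that binds the drug tacrolimus, had 0 and 3 in hypoxia and 1 in EU, and the EU and hypoxia peaks met at 1 base. FKBP11, an ER isomerase, had 0 and 5 in hypoxia and none elsewhere, but 2 of the 5 overlap another of them, so that they mark 3 sites. No other member had overlapping peaks within a library. Among members in the promoter table, FKBP11 and DNAJA1 had a peak that reached the window of 250 bases before to 50 after the table's start, which in FKBP11 lies well inside the RefSeq span used for positions. FKBP10, an ER isomerase that acts on collagen, had 1 peak, in normoxia replicate 2.

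Of the 21 members with a peak in at least 2 libraries, 20 had at least 1 base common to 2 libraries (95.2%), against 89.0% of all 1695 such genes. A base common to every library with a peak was found in 19 (90.5%, against 80.4%); the exceptions were BAG5 and DNAJA1. In FKBP1A and HSPA1A the libraries met at 1 base. By peaks, 14 of the 25 member peaks of hypoxia replicate 1 were overlapped by replicate 2 (56.0%, exact 95% interval 34.9 to 75.6), against 47.3% of other peaks. Of the 34 EU member peaks, 38.2% were overlapped by hypoxia replicate 2 and 23.5% by normoxia replicate 2, where other peaks gave 29.7% and 15.0%. Of the 15 member peaks of normoxia replicate 2, 60.0% (32.3 to 83.7) were overlapped by EU and 33.3% (11.8 to 61.6) by hypoxia replicate 2, against 54.0% and 28.0% of other peaks. The value of other genes lay inside the interval of the members in each case. The lists differ in length, but overlap did not simply follow it. Peaks of normoxia replicate 2 were overlapped more often by EU than by the longer list of hypoxia replicate 2. The part of list length was not tested. Peaks of 1 library are not replicates, and no test was run.

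With 0 at the start and 1 at the end of the RefSeq span, the median peak centre of chaperone genes was at 0.79 and 0.75 in the hypoxia replicates, 0.76 in EU and 0.86 in normoxia replicate 2. Other genes gave 0.71 and 0.74 in hypoxia, 0.79 in EU and 0.76 in normoxia replicate 2 (mean difference 0.04 ± 0.06, SD, n = 4 libraries, exact paired permutation p = 0.375). Positions above 0.9 held 36.0% and 31.1% of member peaks in hypoxia, 32.4% in EU and 33.3% in normoxia replicate 2, and of other genes' peaks 28.0% and 31.0% in hypoxia, 34.1% in EU and 32.4% in normoxia replicate 2. The difference in median position between conditions was -0.08 (2 hypoxia libraries against normoxia replicate 2, exact permutation p = 0.333, the smallest possible). It turned to 0.04 with the 50% of peaks of smallest p and came to -0.0059 by the condition lists. Spans include introns and the longest annotated transcripts, which moves the relative position of genes such as HSP90AA1 and DNAJB1.

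Peaks that join 2 or more exon blocks, and so span splice junctions, were common among chaperone genes in hypoxia. They were 9 of 25 member peaks in hypoxia replicate 1 (36.0%), 34 of 74 in replicate 2 (45.9%), 7 of 34 in the EU library (20.6%) and 0 of 15 in normoxia replicate 2 (exact 95% interval 0 to 21.8). Other genes had 35.9% and 36.6% in hypoxia, 19.8% in EU, and 29.7% and 10.0% in the normoxia replicates. In the 4 libraries with members, these differed from other genes by 0.0512 ± 7.93 percentage points on average (SD, n = 4 libraries, exact paired permutation p = 0.875). Over all 7 lists, 66.7% of the 18 peaks of CCT and TCP1 genes, 65.2% of the 23 of HSP90 and 7 of the 10 of CALR joined blocks, against 18.9% of the 53 of HSP70 and 7.69% of the 13 of BAG genes. HSPA1A, HSPA1B and HSPA6 are single-exon genes, in which no peak can join exons. The families also differ in the lists their peaks come from. No CCT or TCP1 peak and 1 HSP90 peak, in EU, came from outside the hypoxia lists. In EU, normoxia replicate 2 and the normoxia condition list, HSP70 had 10, 6 and 9 peaks, BAG 4, 2 and 4, and CALR 2, 1 and 0. Many peaks of a condition list repeat those of its replicates, so these family shares are a description.

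**Figure D5:**
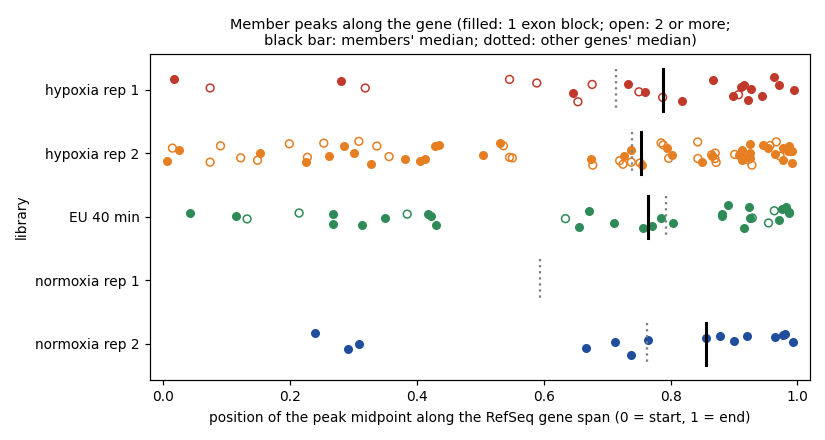
Centre of each member peak along the RefSeq gene span (x axis, 0 at the start and 1 at the end), by library. Filled points are peaks of 1 exon block and open points peaks of 2 or more. The black bar is the members' median and the dotted bar that of other genes. Normoxia replicate 2 has no open point, and normoxia replicate 1 has no member peak.

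The EU library listed 21 members. Of the 39 members listed by the hypoxia and normoxia replicates, 15 also had an EU peak (38.5%), near the 39.9% of all genes. Among the 5 libraries, EU alone listed 6 members, here with their best deposited p: HSPA1L (2.1e-06), BAG4 (1.9e-05), HSPBAP1 (2e-05), HSPA6 (6.6e-05), DNAJC3-AS1 (0.00018) and DNAJB4 (0.00028). They make up 28.6% of the members in EU, where 46.1% of all EU genes were listed by no other library. By condition, 12 of 33 members of the hypoxia replicates (36.4%) and 7 of 11 of the normoxia replicates (63.6%) had an EU peak, against 38.0% and 62.3% of all genes of those libraries. There was 1 EU library, so none of these shares has a replicate check.

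The condition lists held 28 members in hypoxia and 11 in normoxia. Of the 36 members in either, 25 were in the hypoxia list alone (69.4%, against 62.8% of all genes), 8 in the normoxia list alone (22.2%, against 20.3%) and 3 in both (8.33%, against 16.9%). The 3 were HSPA2, DNAJC14 and PPIB, and the 8 were BAG3, BAG5, DNAJB8, DNAJC5, HSPA1A, HSPA5, HSPBP1 and PDIA4. Condition lists and replicates disagreed for some genes. BAG5 and DNAJC5 had peaks in a hypoxia replicate and in the normoxia condition list, FKBP10 had 1 in the hypoxia condition list and 1 in normoxia replicate 2, and HSPA2 had 2 in the hypoxia condition list, 5 in the normoxia condition list and 1 in normoxia replicate 2. In hypoxia 6 of the 28 members had no peak in a replicate (21.4%, against 26.5% of all genes), and in normoxia 4 of 11 (36.4%, against 42.9%). DNAJB4, which no hypoxia replicate lists, had 1 peak in the hypoxia condition list that overlaps its EU peak. HSPBP1 and DNAJB8 were in the normoxia condition list alone, and DNAJC2, a ribosome-bound J-domain protein, HSPA14 and DNAJC1 in the hypoxia condition list alone.

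Several well-known chaperones are not named in any of the 7 lists and so are not among the 50: HSP90B1, HSPD1, HSPB1, BAG6, CANX, PPIA, PDIA3, and FKBP4 and FKBP5, which act with HSP90 on steroid receptors. The name HSPE1 was likewise absent, although the HSPE1-MOB4 peak reaches that gene. A gene without a called peak is not thereby unmethylated or silent. A list of 58 other genes of protein homeostasis, none of them a member, was counted the same way: 7 and 11 had a peak in the hypoxia replicates, 10 in EU, and 0 and 5 in the normoxia replicates. Their number includes genes in no list, unlike the shares over all listed genes given above. Of 16 with a peak in the hypoxia or normoxia libraries, 4 were hypoxia-only (25%, against 15.3% of all genes): CDC37, the kinase co-chaperone of HSP90, PFDN2, a prefoldin subunit that delivers clients to CCT, TXNDC5, an ER thioredoxin, and SEL1L, of ER-associated degradation. SEL1L had 5 and 4 peaks in the hypoxia replicates, 2 in EU and 0 in both normoxia replicates. XBP1, the ER stress transcription factor, had 2 and 3 in hypoxia, 0 in EU, and 0 and 2 in normoxia. HSF1 and HSF2, which drive the heat shock response, and the stress factors ATF4 and DDIT3 were in no list.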

How the data were processed

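Peak lists of 5 pulled-down libraries and 2 conditions were used. Per the submitters' processing notes, reads were aligned with STAR to hg38; their versions, how peaks were called against inputs, and which annotation named the genes are not given in the sources used here. Deposited lists have 12 BED columns without a header, and column 5 was read as the authors' p-value of each peak, since it ascends between 0 and 0.013. It was used to rank and describe peaks within a list. Depth is unknown.

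Starts were moved to count from 1. Members were matched to RefSeq spans (GRCh38.p14) by name within 10 kb, 50 of 50, of which 49 by current symbol; over all genes 4594 of 5000 matched. A peak's position is the middle of its exon bases. Peaks overlapped if exon blocks on the same strand shared at least 1 base. Strand use in the authors' calling is not stated, so antisense and overlapping genes are uncertain. Hypoxia and normoxia libraries were compared with exact two-sided permutation tests (Python 3.11.15, scipy 1.17.1 for exact binomial 95% intervals), tested on simulated data. Comparisons of members with other genes over libraries, and shares of all genes for recurrence and shared bases, were added after the data were seen.

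The members and lists were chosen with earlier results of these data known. Genes described in full have a peak in at least 3 of 5 libraries, are hypoxia-only or normoxia-only, are among up to 8 EU-only and 6 condition-list-only genes by p, or were fixed for their topic; remaining members are given by their counts, and those singled out were seen first. Alternatives kept the 50% of peaks with the smallest p, peaks of 150 exon bases (the median) or more, or the 212 best of each library, left out near-identical members or 1 library, or used the condition lists or a replicate block. Peak sequences and motifs need a genome and were not analysed here. Promoter motifs were searched in the 250 bases before each start.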

Additional observations from a re-analysis of the deposited data

How the results depend on the processing

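Of 53 alternatives over 6 results, 2 reversed the direction, and since the exact tests could not pass 0.05, no call could be lost. Sizes moved also where directions held: the log2 difference in member genes fell to 0.5 with shortened lists, that in peaks per member gene to 0.306 with the best 50% of peaks, and that in share to 0.168 by the condition lists. When only the 50% of peaks with the smallest p were kept, hypoxia-only members came to 1, the share of hypoxia replicate 1 member peaks met by replicate 2 to 14.3% (1 of 7 peaks), and the position difference turned to 0.0406. With libraries shortened to 212 peaks, hypoxia-only members came to 0 and the shared peaks to 0 (of 1 peak), and peaks per gene and position had no value. By the condition lists, 25 members were in hypoxia and not in normoxia. The cause was not tested, except that shorter lists hold fewer members. Without 1 replicate, the log2 difference in member genes ran from 0.80 to 4.38, hypoxia-only members from 7 to 24, the share difference from -0.0190 (without normoxia replicate 1) to 1.21 percentage points, peaks per member gene from 0.42 to 1.28 and position from -0.10 to -0.07. Without normoxia replicate 2 no normoxia member was left for the last 2. Under a replicate block, member genes and share still differed by 2.59 and 0.594 (exact paired p = 0.5, the smallest possible), and peaks per gene and position, from replicate 2 alone, were 1.28 and -0.10. Same-numbered libraries deviated with a correlation of -0.0978 over 3226 genes. With lists of such unequal length, this value cannot exclude pairing. The labels state no pairs, so the main tests took the libraries as unpaired.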

Other observations

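Of the 148 member peaks in the 5 libraries, 19 in 11 members had another RefSeq gene within their outer range. That range includes the gaps between exon blocks. Among them are the shared PPIB site (with SNX22), the TCP1 peak nearest the gene's end (with ACAT2), the FKBP1A peaks (with FKBP1A-SDCBP2 and SDCBP2-AS1) and a PDIA6 site (with ATP6V1C2). In HSPA8, a peak of 1 block in hypoxia replicate 1 reaches the RefSeq span of a small nucleolar RNA gene, SNORD14D. A peak of 2 blocks in replicate 2 has SNORD14E within its outer range, and whether a block or the gap meets it was not checked. In HSPA1A and HSPA6, 2 single-exon HSP70 genes, the peak nearest the start was centred 740 bases from the annotated start in both, in normoxia replicate 2 for HSPA1A and in the EU library for HSPA6.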
